A study of Mus musculus with 18 samples.

Results

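The genes described here encode the proteins of the cytosolic ribosome. They were taken by symbol, as genes named Rpl or Rps followed by a number and at most a letter (a, x, l or y) and a digit, together with Rpsa, Rplp0, Rplp1 and Rplp2, which leaves out names with a -ps ending, the S6 kinases and names such as Rpl36al, Rpl37rt and Rps27rt. The rule gave 84 of the 16614 genes in the table, of which 52 belong to the large (60S) subunit and 32 to the small (40S) subunit. A total of 81 passed the filter on low counts and were tested among 11989 genes. The other 3, Rpl3l, Rpl6l and Rpl39l, stayed under 0.2 CPM (counts relative to library size) in every library and were tested only in the alternative without that filter.

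RNA was sequenced from mouse bone marrow-derived dendritic cells (BMDC), which had been grown for 7 to 10 days in medium with 20 ng/ml GM-CSF and 100 ng/ml Flt3L, the cytokines that drive dendritic cell development. The cells were sorted as CD11c+ Xcr1+ type 1 dendritic cells (DC1), or selected with an XCR1 antibody and magnetic beads, and which of these applied to each sample is not stated. The genotype was WT or KO and the treatment was none (control) or lipopolysaccharide (LPS), the bacterial ligand of Toll-like receptor 4, which gave 5 KO LPS, 5 WT LPS, 4 KO control and 4 WT control samples. The labels name neither the deleted gene nor the dose or time of LPS, so no deleted gene could be checked, and they do not say whether replicates came from separate cultures or animals. P-values therefore measure the spread between samples as deposited, which may be technical. The series title names STAT5 and STAT3, transcription factors downstream of cytokine receptors, as its subject.

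A ribosome is built from ribosomal RNA and one copy of most of these proteins, so their genes are usually expressed together and at high levels. Many of their mRNAs begin with a cytosine followed by a run of pyrimidines, the 5′ terminal oligopyrimidine (TOP) motif, through which the kinase mTORC1 and the RNA-binding protein Larp1 control their translation. Dendritic cells change their protein synthesis when they sense LPS. RNA levels, as measured here, do not report translation.

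RefSeq starts, on build GRCm38.p6, were found for 63 of the 84 genes. A cytosine at the annotated start followed by at least 4 pyrimidines stood at a start of 14 of these 63 genes (22.2%), against 3.01% of 27025 genes with a promoter sequence in the same table. The 30-base windows below, centred on the annotated start and written in the direction of transcription, show this motif in capitals for 7 genes and its absence at that base for Rpl22 and 3 paralogues. All but Rpl28, which is shown only for its sequence, are genes named again below. Most members with a start in the table lack the motif at that base.
Rpl35 (chr2:39005117-39005146, minus strand): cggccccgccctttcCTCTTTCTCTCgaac
Rps6 (chr4:86857353-86857382, minus strand): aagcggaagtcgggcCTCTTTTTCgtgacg
Rpl28 (chr7:4792950-4792979, plus strand): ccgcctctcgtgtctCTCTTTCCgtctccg
Rplp2 (chr7:141447636-141447665, plus strand): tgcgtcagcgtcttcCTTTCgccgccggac
Rps18 (chr17:33955651-33955680, minus strand): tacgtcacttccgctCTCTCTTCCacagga
Rps27 (chr3:90213634-90213663, minus strand): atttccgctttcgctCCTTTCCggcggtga
Rpl32l (chr10:20208424-20208453, plus strand): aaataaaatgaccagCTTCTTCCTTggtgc
Rps27l (chr9:66946071-66946100, plus strand): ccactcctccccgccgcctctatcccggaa
Rpl22l1 (chr3:28805493-28805522, plus strand): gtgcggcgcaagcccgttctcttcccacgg
Rpl7l1 (chr17:46782642-46782671, minus strand): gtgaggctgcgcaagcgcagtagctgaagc
Rpl22 (chr4:152325711-152325740, plus strand): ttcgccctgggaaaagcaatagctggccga
The windows of Rps27l and Rpl22l1 do hold pyrimidine-rich stretches near the start, but no cytosine with 4 pyrimidines at the annotated base. A run of at least 8 pyrimidines within 15 bases of the start, on the sense strand, was found for 28 of the 63 genes (44.4%) and for 13.9% of all genes, and it can overlap the motif above. Over 300 bases around the start and on either strand, CCGGAAG, a core bound by ETS factors, was found in 26 genes (41.3%, against 9.93% of all genes), AAGATGGCG, a core bound by YY1, in 4 (6.35% against 1.64%) and TATAAA in 8 (12.7% against 15.7%). These counts describe letters at annotated starts, which can lie some bases away from the starts used in these cells.

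Levels per unit of length are given as TPM, which is scaled by transcript length and library size, as deposited. Rpl23a, a protein at the exit of the peptide tunnel, had the highest mean over all 18 libraries at 7241 TPM, followed by Rps29 at 6028 TPM, Rpl41 at 4999 TPM and Rps27 at 4881 TPM. The lowest levels among tested genes were those of Rpl32l at 36.7 TPM, Rpl7l1 at 64.3 TPM, Rps15a at 96.7 TPM and Rpl22 at 189 TPM. The length behind a TPM is the annotation's: the effective length computed from the file was 4842 bases for Rps15a and 1909 bases for Rpl22, against a median of 431 bases over the ribosomal protein genes. Counts of 26 of the 84 genes were not whole in 1 or more libraries, 10 of them in all 18, and how reads shared with near-identical copies were counted is not stated here. Values of these genes, among them Rpl17, Rpl37 and Rplp2 in all libraries and Rps27 and Rpl34 in some, are less certain than those of the rest. Of the rows that the rule left out, Rpl36al averaged 122 CPM and Rps15a-ps5 averaged 39.6 CPM, and no other exceeded 2.30 CPM in any library.

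Library totals ran from 25590104 to 27375189 estimated counts. Of 10 cDC1 markers, all were above 1 CPM in every group, with summed levels of 6377 to 8816 CPM. Summed markers of monocytes and macrophages ran from 1872 to 2215 CPM in controls and from 1208 to 1849 CPM with LPS, and those of plasmacytoid dendritic cells from 86.1 to 101 CPM in controls and from 475 to 687 CPM with LPS. A sum does not give the direction of each marker. The LPS log2 fold changes of 10 monocyte and macrophage markers had 6 above 0 and 4 below in WT (median 0.65). In KO 5 were above and 5 below (median 0.57). Of 5 tested plasmacytoid markers 3 were above 0 and 2 below in WT, and 2 above and 3 below in KO. Neutrophil markers stayed under 2.06 CPM except in 1 WT control and 1 WT LPS library, at 25.4 and 83.5 CPM. In bulk samples, fewer cells of a type and less RNA per cell cannot be told apart, and the part of these markers in the results below was not tested.

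The summed share of all counts held by the 84 genes was the plainest measure of their output. In WT control libraries it was 6.85%, 6.74%, 6.32% and 6.68%, and in KO control libraries 7.04%, 7.62%, 7.28% and 8.08%. With LPS it was 5.33%, 4.64%, 4.87%, 5.00% and 4.68% in WT, and 4.35%, 4.49%, 4.70%, 4.48% and 4.31% in KO. Every KO control library lay above every WT control library, and every LPS library lay below every control library of either genotype, whereas WT and KO overlapped with LPS.

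**Figure D1:**
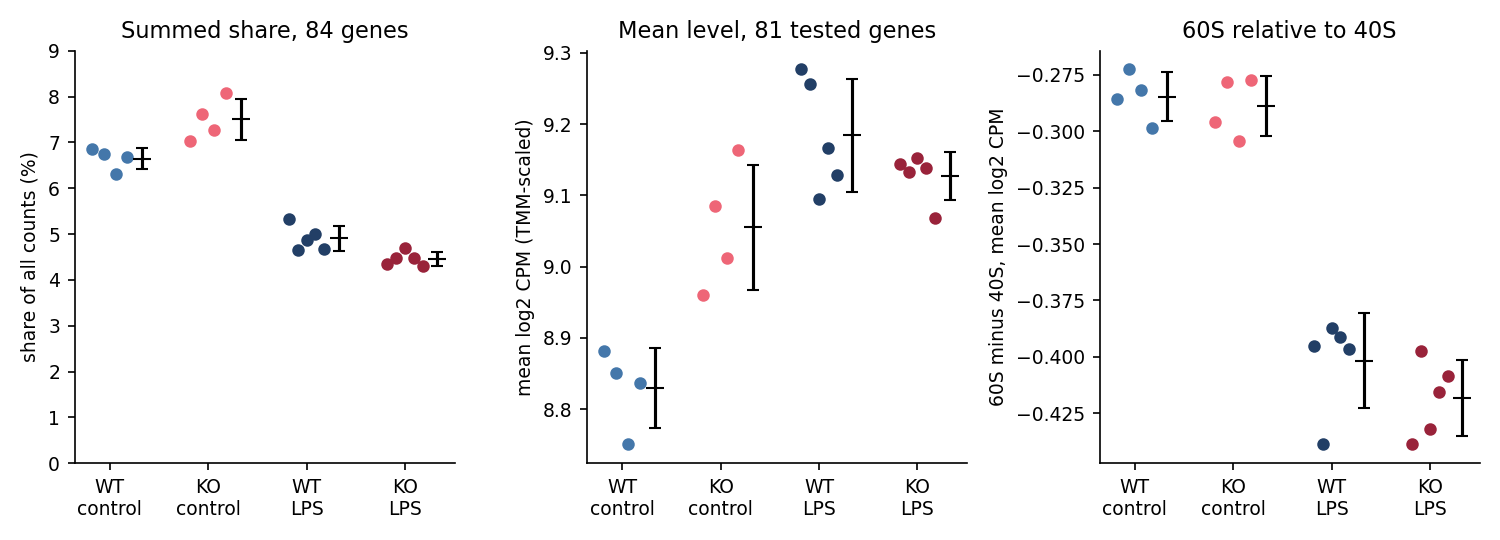
Points are libraries, and the bar beside each group is the mean with its SD (n = 4, 4, 5 and 5); the left panel gives the summed share of counts in percent, the middle one the mean log2 CPM of the 81 tested genes after TMM scaling, and the right one the mean of 60S genes minus that of 40S genes in log2 CPM. KO control exceeds WT control in the left and middle panels, LPS libraries are lowest on the left but not in the middle, and the 60S to 40S difference is more negative in all LPS libraries.

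Among controls the share averaged 7.50% ± 0.45 in KO and 6.64% ± 0.23 in WT (SD, n = 4 each), and among LPS samples it averaged 4.46% ± 0.15 in KO and 4.90% ± 0.28 in WT (SD, n = 5 each). On the TPM scale, which weights short genes more, control means were 25.7% in KO and 23.8% in WT and LPS means were 17.4% and 18.6%. The 100 most abundant other genes took 20.1% and 19.2% of counts in KO and WT controls and 28.1% and 27.2% with LPS. With those 100 genes left out of the denominator, the share was 9.40% in KO and 8.23% in WT controls and 6.21% and 6.74% with LPS.

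Changes per gene were tested after TMM scaling, which sets each library against the bulk of its genes, so they are changes relative to other genes and not in share of the total. In control samples, 30 of 81 tested ribosomal protein genes were higher in KO than in WT by edgeR's quasi-likelihood test at an adjusted p under 0.05, 0 were lower and 51 did not pass, against 1.89% of all tested genes that were higher and 0.525% that were lower. At an unadjusted p under 0.05 the count was 74 of 81, against 13.9% of all genes. The median log2 fold change was 0.23 (1.17-fold), against 0.02 over all genes, and 80 of 81 values were above 0. In 66 genes every KO control library was above every WT control library, against 9.22% of all genes, and in none was every KO library below, against 5.45%. Of 49 tested 60S genes 19 were called, and of 32 tested 40S genes 11. Markers of other cell types were read in the same comparison. Summed plasmacytoid dendritic cell markers ran from 86.1 to 91.1 CPM in WT control and from 93.7 to 101 CPM in KO control, without overlap. Single markers of that list went both ways, with 3 of the 5 tested above 0 and 2 below (median 0.007). None of the 5 was called by edgeR (2 at an unadjusted p under 0.05). Summed monocyte and macrophage markers overlapped (1872 to 1968 CPM in WT and 1952 to 2215 CPM in KO), but all 10 had values above 0 (median 0.14), none called and 1 at an unadjusted p under 0.05. Of all 11989 tested genes 6852 had values above 0. Of the 10 cDC1 markers 1 was called lower and 0 higher, with values from -0.68 to 0.32 and a median of 0.10.

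Rpl34 (gene ID 68436), a 60S protein, stood at 221, 211, 197 and 219 CPM in WT control and at 249, 276, 263 and 280.0 CPM in KO control. The genotypes did not overlap, and the log2 fold change was 0.33 ± 0.06 (SE, edgeR adjusted p = 0.0033). Rpl36 (54217), another 60S protein, read 149, 145, 119 and 139 CPM in WT and 167, 183, 164 and 183 CPM in KO. Again no KO library fell into the WT range (0.34 ± 0.08, adjusted p = 0.029).

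The stalk, formed by Rplp0 with Rplp1 and Rplp2, recruits translation factors to the 60S subunit. Rplp2 (67186) read 411, 395, 362 and 395 CPM in WT control and 455, 505, 478 and 527 CPM in KO control (0.33 ± 0.07, adjusted p = 0.015). Rplp0 was called as well (0.22 ± 0.05, adjusted p = 0.023), and Rplp1 had a like value that did not pass the test (0.26 ± 0.08, adjusted p = 0.096). The 5S ribonucleoprotein proteins Rpl5 and Rpl11, which also bind the p53 regulator Mdm2, had log2 fold changes of 0.20 (adjusted p = 0.064) and 0.24 (adjusted p = 0.024). Of 8 proteins around the peptide tunnel exit, 5 rose, with a median of 0.26, against 37.0% of all tested members and 1.89% of all genes.

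Of members with roles outside the ribosome or as kinase targets, 2 of 4 rose, against the same 37.0% of members and 1.89% of all genes. They were Rps3, which also binds NF-kB (0.24, adjusted p = 0.045), and Rpl13a, which also silences inflammatory mRNAs in myeloid cells (0.27, adjusted p = 0.044). Rps6, the substrate of the S6 kinases, stood at 0.17 (adjusted p = 0.12) and Rps27a, a ubiquitin fusion, at 0.22 (adjusted p = 0.072). Among ribosomal proteins outside the naming rule, Fau, the precursor of eS30, rose (0.36 ± 0.06, adjusted p = 0.0023), while Rack1 (0.17, adjusted p = 0.084) did not pass. Of 18 TOP mRNAs outside the Rpl and Rps names 2 rose, Fau and Tpt1, the latter by 0.26 on the log2 scale. With the length trend removed 1 of these 18 was called higher, against 1.38% of all genes. The paralogues Rpl22l1 (-0.13, adjusted p = 0.68) and Rpl7l1 (0.01, adjusted p = 0.97) had the lowest values of all tested members. Of the genes named in this comparison, Rpl34 and Fau were called in each of the 18 fits that left out 1 library, Rps3 in 4 and Rpl13a in 5 of them.

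**Figure D2:**
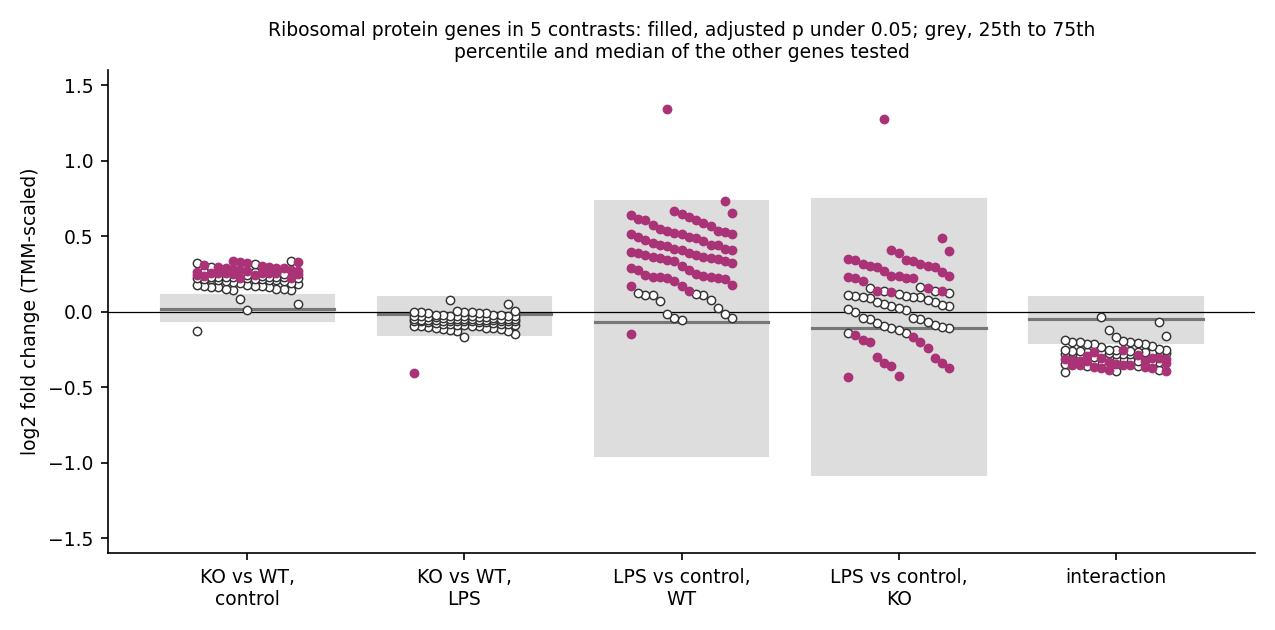
Each point is 1 of the 81 tested ribosomal protein genes, with its log2 fold change after TMM scaling on the vertical axis for 5 contrasts; filled points had an adjusted p under 0.05, and the grey box and line give the 25th to 75th percentile and the median of 11908 other genes. In control samples all but 1 point lie above 0, for KO against WT with LPS 1 point is filled, and all 81 interaction values lie below 0.

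The size of this difference moved with gene length. Over 10749 genes with a length, the KO against WT log2 fold change in control correlated with length at a Spearman's rho of -0.40, and over the 81 ribosomal protein genes at -0.48; genes are not independent replicates. Ribosomal protein genes are short, with a median effective length of 431 bases against 2540 for all tested genes. Other genes of under 300 bases had a median of 0.16 and ribosomal protein genes of that length 0.26, while from 2400 bases up the medians were -0.02 and 0.21, the latter for 2 genes. Libraries of a single group also differed in this trend: the rank correlation of a library's deviation from its group mean with length ran from -0.58 in KO control replicate 4 to 0.49 in WT control replicate 3. What moves with length in these libraries was not tested.

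After removing each library's length trend, 3 of 81 genes were called higher, Rpl22 and Rps3 among them, and 0 lower, against 1.38% and 0.576% of all genes, and the median was 0.11 with 78 of 81 values above 0. Total-count scaling gave 8 higher and 0 lower, against 1.25% and 0.459% of all genes. A block by runs of 4 consecutive library numbers in the labels, where all but 1 run hold a library of each group, moved the count the other way, to 50 higher and 0 lower (3.76% and 1.36% of all genes), and together with removal of the length trend it gave 15 higher and 1 lower (2.94% and 1.61%). The labels do not say what a run shares. The count also rested on single libraries. Dropping WT control replicate 3 left 2 calls, dropping replicate 4, 2 or 1 of that group left 13, 16 or 17, and dropping KO control replicate 2, 4 or 3 left 5, 6 or 18. It was 55 when WT LPS replicate 2, which enters the shared estimate of the spread, was dropped. With both WT control replicate 3 and KO control replicate 4 left out, edgeR called 0 members, and the median was 0.17 with 78 of 81 values above 0. Shares of all genes called in the fits without these libraries are not given here. The counts therefore do not separate a loss of calls among the members from one over all genes.

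**Figure D3:**
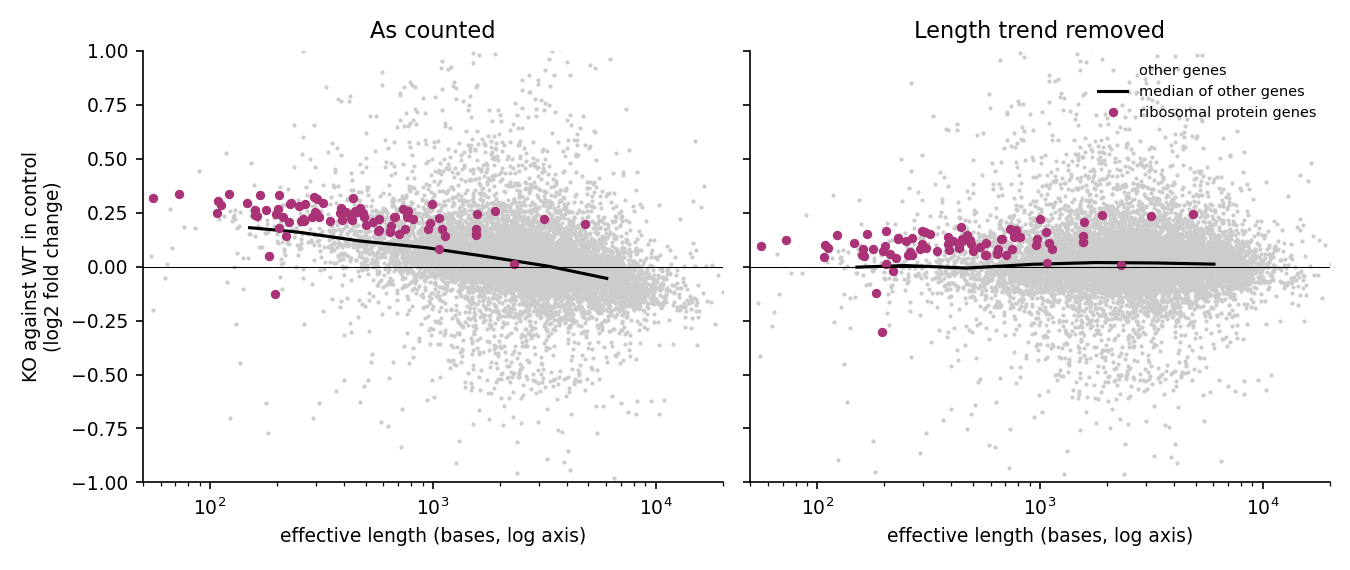
The log2 fold change of KO against WT in control (vertical axis, drawn from -1 to 1) is plotted against effective length in bases on a log axis, before and after removal of each library's length trend; grey points are other genes, the black line their median in length classes, and coloured points the 81 ribosomal protein genes. The black line slopes down on the left and is flat on the right, and ribosomal protein genes lie mostly above it in both panels, closer to 0 on the right.

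With LPS, 1 of 81 ribosomal protein genes differed between the genotypes. By edgeR 0 were higher in KO and 1 was lower, against 5.3% and 5.5% of all tested genes, and DESeq2 and limma-voom gave the same counts. At an unadjusted p under 0.05 there were 7, against 26.2% of all genes. The median log2 fold change was -0.05, and the groups did not overlap for 0 genes higher and 1 lower, Rpl3, against 3.31% and 3.2% of all genes. Rpl22l1 (68028), a paralogue of Rpl22 known from lymphocyte development, was the gene that fell. It read 46.4, 41.8, 36.3, 43.6 and 36.3 CPM in WT LPS and 31.9, 37.1, 28.8, 28.6 and 27.5 CPM in KO LPS. A single KO library lay inside the WT range, and the log2 fold change was -0.41 ± 0.10 (adjusted p = 0.011). It was called lower in all alternatives run, leaving out single libraries included. Its parent gene Rpl22 differed by -0.06 (adjusted p = 0.51). With total-count scaling 13 members were called lower and 0 higher in KO, against 9.94% and 2.97% of all genes, with a median of -0.14. With the length trend removed 1 was lower and 0 were higher, against 5.15% and 6.87% of all genes, with a median of 0.03. Of the 10 cDC1 markers, 4 were called lower and 1 higher in KO with LPS after TMM scaling, against 5.5% and 5.3% of all genes.

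The response to LPS depended on the scale on which it was read. Relative to other genes, 67 of 81 ribosomal protein genes rose in WT and 1 fell after TMM scaling (40.7% and 44.7% of all genes), with a median of 0.36, whereas total-count scaling gave 1 higher and 73 lower (19.8% and 69.9% of all genes), with a median of -0.38. Total-count scaling moved the median of all genes to -0.80, and upper-quartile scaling moved it to -0.33, with 33 members higher, 14 lower and a median of 0.09. Shares of all genes called under upper-quartile scaling are not given here. On the TMM scale the members' median was above that of all genes (-0.06), while their share of the total count was lower, as given above. A change of scaling shifts all genes by nearly the same amount, so this order holds on each of these scales by construction. After removal of the length trend 52 members were higher and 6 lower (44.9% and 41% of all genes), with a median of 0.18. On the TMM scale, every LPS library was above every control library for 61 members and below for 0 (36.6% and 41.3% of all genes).

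In KO cells the LPS values lay lower. After TMM scaling 29 members rose and 14 fell (40% and 46.2% of all genes), with a median of 0.09, whereas total-count scaling gave 1 higher and 80 lower (20.2% and 70.4% of all genes) and upper-quartile scaling 2 higher and 51 lower, with medians of -0.69 and -0.20. DESeq2, with its own size factors, called 50 higher and 9 lower. Shares of all genes under upper-quartile scaling and DESeq2 are not given here, so these counts alone are no result about the members. With the length trend removed 39 were higher and 16 lower (45% and 41.9% of all genes). On the TMM scale, LPS and control libraries did not overlap for 21 members higher and 10 lower with LPS (37.8% and 44% of all genes). Rpl35, whose start is shown above, rose by 0.41 ± 0.06 in KO after TMM scaling (adjusted p = 2.5e-06), but total-count scaling gave -0.37.

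Rps27l (67941), a paralogue of the 40S protein Rps27 and a p53 target, had the highest log2 fold change with LPS. It read 40.5, 34.8, 38.5 and 41.7 CPM in WT control and 95.7, 129, 72.3, 93.9 and 104 CPM in WT LPS. In KO the values were 40.6, 40.4, 43.8 and 46.9 CPM in control and 116, 90.2, 98.8, 111 and 105 CPM with LPS. LPS and control libraries did not overlap in either genotype. The log2 fold change was 1.35 ± 0.12 in WT (adjusted p = 1.6e-09) and 1.28 ± 0.12 in KO (adjusted p = 3.2e-09). It was the one member called higher under total-count scaling in both genotypes, at 0.59 and 0.49, and with the length trend removed it stood at 0.99 and 1.18.

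Rps27 (57294), the parent gene, read 176, 159.6, 167 and 189 CPM in WT control and 262, 372, 244, 259 and 236 CPM in WT LPS, where replicate 2 was far above the others. Its log2 fold change in WT was 0.67 ± 0.10 after TMM scaling (adjusted p = 6.3e-06), but -0.09 with total-count scaling and -0.05 with the length trend removed. Counts of Rps27l were 19.7% ± 1.9 of those of Rps27 in KO and 22.5% ± 0.63 in WT controls (SD, n = 4 each), and 38.0% ± 4.2 in KO and 36.2% ± 5.1 in WT samples with LPS (SD, n = 5 each). This ratio within a library does not depend on scaling, though it compares effective lengths of 219.98 and 72.7 bases, and no LPS library, at 29.6% or more, overlapped a control library, at 23.1% or less.

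**Figure D4:**
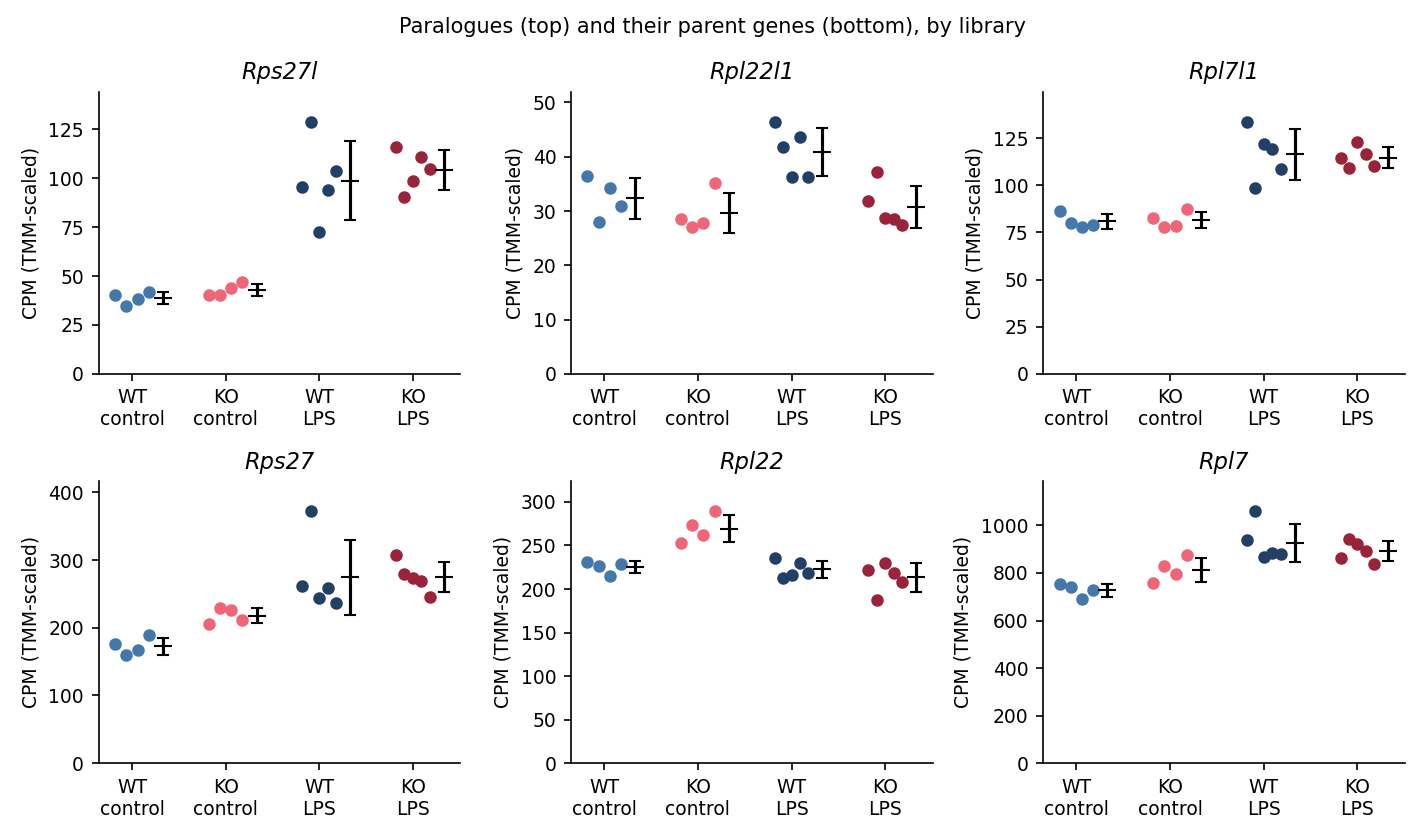
CPM after TMM scaling is plotted by library for 3 paralogues (top) and their parent genes (bottom), with group means and SD (n = 4, 4, 5 and 5) and vertical axes from 0. Rps27l and Rpl7l1 are higher in all LPS libraries than in all control libraries on this scale (total-count scaling gives Rpl7l1 -0.21 in WT and -0.29 in KO), Rpl22l1 in KO LPS mostly lies under WT LPS, and Rpl22 is highest in KO control.

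Rpl7l1 (66229), a paralogue of Rpl7 with a role in ribosome assembly, read 86.4, 80.0, 77.7 and 79.1 CPM in WT control and 133, 98.3, 122, 119 and 109 CPM in WT LPS. In KO it read 82.6, 78.1, 78.4 and 87.5 CPM in control and 114, 109, 123, 117 and 110.3 CPM with LPS. After TMM scaling it rose by 0.53 ± 0.07 in WT and 0.49 ± 0.07 in KO (adjusted p = 8.8e-07 and 2.2e-06), while total-count scaling gave -0.21 and -0.29. Relative to Rpl7 its counts were 10.0% ± 0.63 in KO and 11.1% ± 0.34 in WT controls, and 12.9% ± 0.74 in KO and 12.7% ± 2.0 in WT samples with LPS, and the WT ranges overlapped.

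Counts of Rpl22l1 relative to Rpl22 were 11.0% ± 0.97 in KO and 14.4% ± 1.8 in WT controls, and 14.6% ± 3.0 in KO and 18.3% ± 1.5 in WT samples with LPS. The ratio was lower in every KO control library than in every WT control library, and with LPS the genotypes overlapped through 1 KO library at 19.8%. Rpl22l1 read 36.5, 27.9, 34.2 and 30.9 CPM in WT control, so its LPS change in WT was 0.34 ± 0.10 after TMM scaling (adjusted p = 0.0055), against -0.41 with total-count scaling and -0.05 with the length trend removed. In KO it was 0.05 (adjusted p = 0.63).

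Among other 40S proteins, Rps29, a small zinc-binding protein, read 325, 305, 300.3 and 343 CPM in WT control and 500.2, 686, 446, 483 and 537 CPM in WT LPS. The groups did not overlap (0.74 ± 0.09, adjusted p = 3.7e-07), although total-count scaling gave -0.02. After TMM scaling 31 of 32 tested 40S genes rose in WT and none fell, against 36 higher and 1 lower of 49 60S genes and 40.7% higher and 44.7% lower of all genes. In KO the counts were 15 higher and 1 lower of the 40S genes and 14 higher and 13 lower of the 60S genes, against 40% and 46.2% of all genes. Both counts moved with scaling, as given above for all members.

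The 60S to 40S comparison within a library does not depend on scaling. The mean log2 CPM of tested 60S genes minus that of 40S genes was -0.29 ± 0.013 in KO and -0.28 ± 0.011 in WT controls (SD, n = 4 each), and -0.42 ± 0.017 in KO and -0.40 ± 0.021 in WT samples with LPS (SD, n = 5 each). Control libraries ran from -0.30 to -0.27 and LPS libraries from -0.44 to -0.39, so the treatments did not overlap while the genotypes did. The 40S mean includes Rps27l, which changed by 1.35 with LPS in WT against a 40S median of 0.38. The difference without Rps27l was not computed. Over the 81 genes the LPS change in WT correlated with length at a Spearman's rho of -0.48, and the part of length in the 60S to 40S difference was not tested.

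On the other side stood Rpl3 (27367), which lies near the peptidyl transferase centre. It read 1392, 1467, 1332 and 1367 CPM in WT control and 1379, 1227, 1214, 1252 and 1191 CPM in WT LPS, where 1 LPS library lay among the controls. It was the one member called lower in WT after TMM scaling (-0.15 ± 0.05, adjusted p = 0.0090), and it was not called lower with RLE scaling or with the length trend removed. In KO it read 1388, 1503, 1438 and 1550 CPM in control and 1158, 1160, 1187, 1181 and 1130 CPM with LPS, a gap between the groups (-0.34 ± 0.05, adjusted p = 2.8e-06).

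Of the 14 members that fell in KO with LPS, Rpl17 (319195), at the tunnel exit, had the lowest log2 fold change. It read 828.9, 966, 896 and 967 CPM in KO control and 664, 729, 679.7, 653 and 659 CPM in KO LPS, against 783, 764, 694 and 791 CPM in WT control and 753, 806, 710.0, 710.2 and 699 CPM in WT LPS. The KO groups did not overlap (-0.43 ± 0.06, adjusted p = 1.0e-06) and the WT groups did (-0.04, adjusted p = 0.50). Rpl37 (-0.43), Rpl32l (-0.37), Rpl13a (-0.36) and Rpl22 (-0.34) fell as well in KO, and all 14 but Rps18 belong to the 60S subunit. Rpl13a and Rpl22 had values of -0.01 and -0.02 in WT, and Rpl22 stood at 0.19 in WT with the length trend removed. Total-count scaling gave lower values for all of these in both genotypes.

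**Figure D5:**
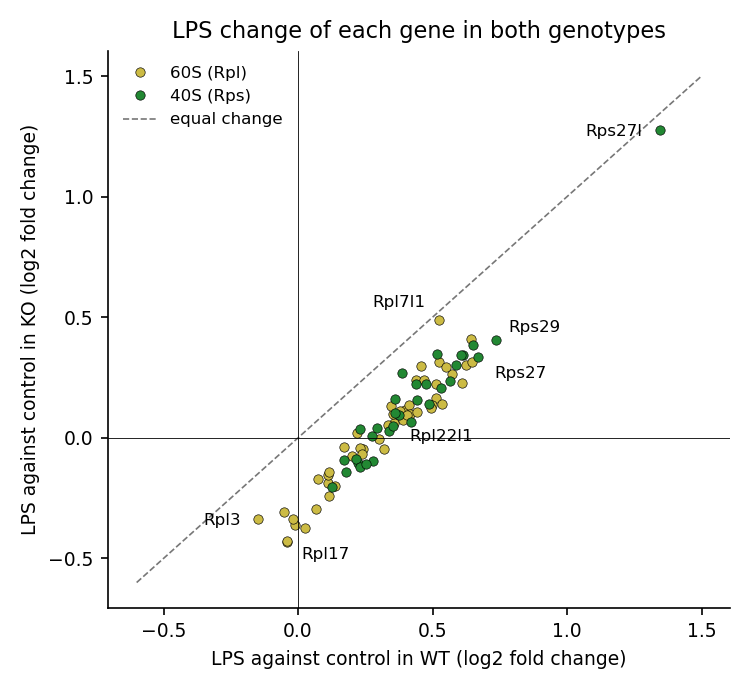
Each point is 1 of 81 ribosomal protein genes, with its LPS log2 fold change after TMM scaling in WT on the horizontal and in KO on the vertical axis; the dashed line marks equal change, and colours give the subunit. Every point lies below the line, and Rps27l stands apart from the rest at 1.35 and 1.28.

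The LPS changes in WT and KO use separate samples, and the order of the genes was much the same in both. Over 81 genes, Pearson's r was 0.96 and Spearman's rho 0.96, given as a description since genes share libraries and scaling. The KO value was below the WT value for all 81. The difference between the LPS changes of the genotypes, tested as an interaction, was called lower for 26 of 81 genes and higher for 0, against 2.79% and 1.03% of all tested genes, and 74 had an unadjusted p under 0.05, against 18.6% of all genes. With total-count scaling 46 were lower and 0 higher, against 3.47% and 0.809%. The median was -0.29, against -0.05 over all genes. The lowest called values were those of Rpl17 (-0.39 ± 0.08, adjusted p = 0.013), Rpl37 (-0.39 ± 0.10, adjusted p = 0.037) and Rps14 (-0.38 ± 0.08, adjusted p = 0.016). Rps14, a 40S protein, differed by 0.31 between KO and WT without LPS and by -0.06 with LPS. For the paralogues Rps27l, Rpl7l1 and Rpl22l1 the interaction was -0.07, -0.04 and -0.28, none of them called.

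The interaction contains the control and LPS samples of the comparisons above and adds no separate evidence. It moved with length too, at a Spearman's rho of 0.42 over all genes. The block by runs of library numbers gave 46 lower and 0 higher, against 5.27% and 2.09% of all genes, and 3 lower and 0 higher with the length trend also removed, against 3.46% and 2.04%. With the length trend removed and no block 0 genes were called by edgeR in either direction, against 1.68% of all genes lower and 0.842% higher, and the median was -0.09, with 73 of 81 values below 0. Leaving out single libraries gave 4 to 46 calls, with 4 when WT control replicate 3 was left out and 7 when either KO control replicate 2 or 4 was, and leaving out WT control replicate 3 with KO control replicate 4 gave 0, with a median of -0.22. Shares of all genes called in these fits are not given here. The call of Rpl37 was lost in 12 of the 18 fits without 1 library.

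Other parts of the translation machinery, from lists chosen by function, were read from the same fits. In control samples 1 of 34 translation factors was higher in KO, against 1.89% of all genes. It was the initiation factor subunit Eif3k (0.21, edgeR adjusted p = 0.031), whose call was lost in 6 of the 18 fits without 1 library. No translation factor was called with total-count scaling or with the length trend removed. Of 54 ribosome biogenesis factors 0 were called higher, with a median of 0.08. The 10 genes for chaperones and importers of ribosomal proteins, the 12 tested genes of RNA polymerase I and the 22 genes of mTORC1 and TOP control also gave no call there by edgeR, with 0, 1 and 1 at an unadjusted p under 0.05, against 13.9% of all genes. With the length trend removed 1 RNA polymerase I gene was called higher, against 1.38% of all genes.

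With LPS in WT, after TMM scaling, 44.7% of all genes fell and 40.7% rose. Of 54 biogenesis factors 32 fell and 7 rose (median -0.34), 8 of 12 RNA polymerase I genes fell and 2 rose (median -0.40), and 7 of 10 ribosomal protein chaperones and importers fell and 1 rose (median -0.64). With total-count scaling, where 69.9% of all genes fell and 19.8% rose, 49, 12 and 10 of them fell and 2, 0 and 0 rose, with medians of -1.08, -1.15 and -1.38. These medians lie below the all-gene median, whereas that of the ribosomal proteins lies above it. Scaling shifts all genes nearly alike, so this order could not differ between these scales. Dkc1, the pseudouridine synthase of ribosomal RNA, fell by 2.41 and Rrp1b by 2.49 on the log2 scale, while Sbds, which releases Eif6 from new 60S subunits, rose by 2.37 and Eif6 itself by 1.65. Polr1b and Polr1e, subunits of RNA polymerase I, had changes of -2.47 and -2.18. These 6 genes kept their direction with total-count scaling.

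Of 34 translation factors 22 rose and 6 fell in WT after TMM scaling, but 7 rose and 25 fell with total-count scaling, shares close to those of all genes on that scale (19.8% and 69.9%). In KO the counts were 19 and 10 after TMM scaling (40% and 46.2% of all genes) and 7 and 26 with total-count scaling (20.2% and 70.4%). Eif1, a start codon selection factor, rose by 1.88, whereas the TOP mRNAs Eif4b, a helicase cofactor, and Eef2, the translocase, fell by 1.05 and 0.43. Of the 18 TOP mRNAs outside the Rpl and Rps names, 6 rose and 7 fell in WT after TMM scaling (40.7% and 44.7% of all genes). In KO 2 rose and 12 fell (40% and 46.2% of all genes). With total-count scaling 17 fell in WT and 18 in KO (69.9% and 70.4% of all genes). Of the 22 genes of mTORC1 and TOP control, 10 rose and 10 fell in WT after TMM scaling, near the all-gene shares, and 4 rose and 14 fell with total-count scaling. The called genes at either end were Larp1 and Akt1s1, regulators of TOP mRNAs and of mTORC1, at 1.96 and 1.88, and Deptor, an mTOR inhibitor, and Sesn1, of the sestrin family, at -4.23 and -2.22.

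Among 16 ribosome quality control genes 8 rose and 4 fell in WT after TMM scaling (40.7% and 44.7% of all genes), and 5 rose and 11 fell with total-count scaling (19.8% and 69.9%). Ascc3, a helicase that splits collided ribosomes, rose by 2.83 and the deubiquitinase Usp10 fell by 1.19 with LPS in WT. Of the 4 eIF2 kinases 1 rose and 3 fell on both scales. Eif2ak2, the interferon-inducible kinase PKR, rose by 4.42, while Eif2ak3 and Eif2ak4, which respond to stress of the endoplasmic reticulum and to uncharged tRNA, had changes of -1.53 and -1.15.

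In KO against WT with LPS, where 5.3% of all genes were higher and 5.5% lower, 2 of 22 genes of mTORC1 and TOP control, 4 of 16 quality control genes and 1 of 54 biogenesis factors were higher, and 0 of each were lower. Myc, from the mTORC1 and TOP list, a transcription factor that drives ribosome production, was higher (0.48 ± 0.06, adjusted p = 3.7e-05). Its values were 41.8, 35.9, 41.0, 42.5 and 41.7 CPM in WT LPS and 61.2, 48.3, 53.6, 61.3 and 59.3 CPM in KO LPS, without overlap. Sesn2, a sensor upstream of mTORC1, was also higher (0.38, adjusted p = 0.0058), as were Map3k20 (0.31), a kinase activated by stalled ribosomes, Ascc3 (0.26) and the biogenesis factor Wdr43 (0.18). The call of Wdr43 was lost in 6 of the 18 fits without 1 library, and the biogenesis factors had a median of -0.02. In the interaction, where 1.03% of all genes were higher and 2.79% lower, 1 of 22 genes of mTORC1 and TOP control and 1 of 16 quality control genes were higher, and 5 of 18 TOP mRNAs and 3 of 34 translation factors were lower. It was called for Myc (0.37, adjusted p = 0.030) and Map3k20 (0.53, adjusted p = 0.015), and in the other direction for Fau (-0.38), Eef1b2 (-0.32) and Eif3f (-0.28). Of these 5, Myc and Eef1b2 lost the interaction call in 8 and 9 of the 18 fits without 1 library, and Eif3f in 1. With the length trend removed 0 of the 18 TOP mRNAs and 0 of the 34 translation factors were called. Fau, Eef1b2 and Eif3f thus lost their calls there. In that setting 1 gene of mTORC1 and TOP control and 1 quality control gene were higher, against 0.842% higher and 1.68% lower of all genes.

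Within groups, the members moved together from library to library. The Pearson correlation of a gene's log2 level with the mean of the members, both taken as deviations from group means over 18 libraries, had a median of 0.77 and was over 0.8 for 33 genes. Rpl35 was highest at 0.92, and Rpl7l1 (0.24) and Rps4x (0.29) were lowest; each gene is part of the mean, and the libraries share scaling and length trend. By the promoter letters shown above, the median log2 fold change in KO against WT control was 0.24 for the 14 genes with a TOP motif at a start and 0.23 for 47 tested genes without, and for LPS in WT it was 0.36 in both sets.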

How the data were processed

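Total RNA of 18 mouse BMDC libraries was sequenced with paired reads of 150 bases. The submitters' processing notes name Bowtie2, HISAT and build GRCm39, without versions. The annotation and counting program are not given in these sources. The authors deposited a table of 16614 genes with estimated counts per gene and library, of which 6.37% of values are not whole (tolerance 0.001), and, per the file headers, TPM (scaled by transcript length and library size) and FPKM values for the same libraries. FPKM, scaled by the authors to length and library size, served only to compute each gene's effective length, from counts and FPKM of at least 1.

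Counts were rounded to whole numbers and tested with edgeR 4.0.16 (R 4.3.3), using TMM scaling, the filter on low counts (10 in a library, 15 in total), quasi-likelihood fits over all 18 libraries in 4 groups without covariates, 5 contrasts and Benjamini-Hochberg adjustment over 11989 genes. Alternatives were total-count, RLE and upper-quartile scaling, TMM without the ribosomal protein genes, filters, DESeq2 1.42.0, limma-voom 3.58.1, removal of each library's length trend (lowess, span 0.3), blocks, and leaving out each library. CPM are counts per TMM-scaled library size. The fit was also run on simulated counts that had the same dispersion (spread between libraries) for all genes, and the outcome is not reported here. Library totals were 25590104 counts or more, and replicate pairs differed beyond counting noise (chi-square per degree of freedom 2.75 to 78.2 over 32 pairs).

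The members and all lists were chosen with earlier results of these data known. Named genes were the paralogue, stalk, 5S, tunnel exit and outside-role members, the 3 called members with the highest and lowest log2 fold change per contrast at 5 CPM or more, the 4 highest and 4 lowest by TPM, and up to 2 called genes per direction of each other list. Rpl28 is named only for its sequence, and Rps18 for its sequence and as the 40S member that fell in KO with LPS, chosen after its values were seen. Values of some genes that this rule names are not reported here.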

Additional observations from a re-analysis of the deposited data

Results flagged for a closer look

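A library was marked where its gap to the nearest other of its group was large against the group's range by Dixon's criterion. Of 72 groups of values tested 5 were marked, and chance marks about 1 in 20. The mean log2 CPM of the ribosomal protein genes in KO LPS replicate 5 was 9.07, with the nearest library at 9.13. The 60S minus 40S difference in WT LPS replicate 2 was -0.44, with the nearest library at -0.40. Rps27 read 372 CPM in WT LPS replicate 2, with the nearest at 262 CPM, and Rplp2 read 685 CPM in WT LPS replicate 1, with the nearest at 603 CPM. The log2 count ratio of Rpl7l1 to Rpl7 was -3.11 in KO LPS replicate 2, with the nearest at -2.94.

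The LPS change differed between WT and KO, by the interaction term of edgeR's quasi-likelihood fit, for 26 ribosomal protein genes, all with a lower value in KO. Among the genes named, the difference in log2 fold change was -0.39 for Rpl17, -0.39 for Rpl37, -0.38 for Rps14, -0.38 for Fau, -0.32 for Eef1b2, -0.28 for Eif3f, 0.37 for Myc and 0.53 for Map3k20. With the length trend removed 0 of the ribosomal protein genes were called. The same held for the 18 TOP mRNAs and 34 translation factors, which include Fau, Eef1b2 and Eif3f.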

How the results depend on the processing

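Direction held for the KO against WT control median and for the interaction median under every alternative run. With total-count scaling, 8 members were higher in KO control, 13 lower in KO with LPS (median -0.14), 1 higher and 73 lower with LPS in WT (median -0.38), 1 higher and 80 lower with LPS in KO (median -0.69), and 46 lower in the interaction. With RLE scaling the counts were 18 for KO control, 0 lower for LPS in WT, 48 higher and 9 lower for LPS in KO (median 0.19), and 9 for the interaction; DESeq2 gave 50 and 9 for LPS in KO (median 0.19). Upper-quartile scaling gave 33 higher and 14 lower for LPS in WT (median 0.092) and 2 and 51 in KO (median -0.20), and with no filter on low counts 15 members were called in the interaction. Shares of all genes called under RLE scaling, upper-quartile scaling and DESeq2 are not reported here. With the length trend removed, KO control had 3 (median 0.11), KO with LPS a median of 0.025, LPS in WT 6 lower (median 0.18) and the interaction 0 (median -0.085).

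The summed share was 23.8%, 25.7%, 18.6% and 17.4% of TPM and 8.23%, 9.40%, 6.74% and 6.21% without the top 100 other genes (controls first, WT before KO). Reversed single genes with total-count scaling were, for LPS in WT, Rps29 (-0.019), Rps27 (-0.088), Rpl22l1 (-0.41), Rpl7l1 (-0.21), Rplp2 (-0.10), Rps6 (-0.45) and Rpl5 (-0.67), and for LPS in KO, Rpl7l1 (-0.29), Rpl35 (-0.37) and Rpl22l1 (-0.73). Upper-quartile scaling reversed Rpl5 in WT (-0.20) and Rpl22l1 in KO (-0.24). Removing the length trend reversed, for LPS in WT, Rps27 (-0.051), Rpl22l1 (-0.049) and Rpl22 (0.19). What sets these differences was not tested.

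The labels do not say whether replicate numbers pair the libraries. Deviations of same-numbered WT and KO libraries from their group means correlated at 0.03 to 0.25 in controls and 0.01 to 0.35 with LPS. Libraries with different numbers were not compared, so these values cannot decide whether the numbers mark pairs. With the replicate block by title number 30 members were higher in KO control and 23 lower in the interaction, and no count moved by over 1.5 times. From replicate 2 on, equal title numbers join control and LPS libraries of different runs of library numbers. For example, WT control replicate 2 has number 10 and WT LPS replicate 2 has number 5. This block therefore does not adjust for runs where treatments are compared. A replicate block by runs of 4 library numbers in the labels gave 50 and 46. With that block and the length trend removed (chosen after seeing the data), KO control had 15 higher and 1 lower (median 0.11), KO with LPS 1 higher (median 0.025), LPS in WT 7 lower (median 0.18), LPS in KO 45 higher, and the interaction 3 (median -0.085), and for LPS in WT Rps27 (-0.086), Rpl22l1 (-0.068) and Rpl22 (0.21) reversed.

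Without library numbers 5 to 8 KO control had 49 and KO with LPS 1 higher; a fit to the 2 control groups alone gave 52. Leaving out single libraries gave 2 to 55 for KO control, 1 to 2 lower for KO with LPS and 4 to 46 for the interaction, where the median ran from -0.32 to -0.25. Without WT control replicate 3 and KO control replicate 4 (chosen after seeing the data), KO control and the interaction had 0, the latter with a median of -0.22. Shares of all genes called in the fits that left out libraries are not reported here. Replicate pairs differed beyond counting noise at these depths, and no fit at a reduced depth was run.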
